A study of Nothobranchius furzeri with 2 samples.

Results

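The genes described here come from the turquoise killifish, Nothobranchius furzeri. They were taken to cover the enzymes that detoxify superoxide and peroxides and that run the glutathione and thioredoxin systems. They were chosen by symbol from the annotated count table. The families taken were glutathione peroxidases (GPX), superoxide dismutases (SOD), peroxiredoxins (PRDX) and glutaredoxins (GLRX), with a number or no suffix. All symbols in GST plus a letter (glutathione S-transferases) and all symbols in TXN (thioredoxin genes) were added, together with CAT, GSR, GSS, GCLC and GCLM, and paralogs were kept. The rule uses symbols alone, although it was set with earlier results of these data known, and it gave 49 of 18529 annotated genes. Its TXN part also took in genes that are not such enzymes, among them the thioredoxin inhibitors TXNIPA and TXNIPB. TXNIPA had 3143 counts over the 60 libraries, the most of the 49.

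Superoxide dismutases turn superoxide into hydrogen peroxide, SOD1 in the cytosol, SOD2 in mitochondria and SOD3 outside the cell. Catalase (CAT, in peroxisomes), glutathione peroxidases and peroxiredoxins then break the peroxide down. Glutathione is made by glutamate-cysteine ligase (GCLC with GCLM) and glutathione synthetase (GSS), is kept reduced by glutathione reductase (GSR), and is joined to foreign or damaged molecules by glutathione S-transferases. Glutaredoxins and thioredoxins repair oxidized protein thiols. The liver is the main organ of drug conjugation and glutathione export, whereas contracting muscle makes superoxide.

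Germ cells had been removed by injecting fertilized eggs with a morpholino antisense oligonucleotide against dead end (dnd), a gene that primordial germ cells need to survive, and the study's methods give a standard morpholino as the control injection. Because the knockdown acted in embryos, dnd in adult liver or muscle does not check it. RNA was counted by bulk RNA barcoding and sequencing (BRB-seq), in which each molecule carries a unique molecular identifier (UMI). The groups were livers of germ cell–removed and control females at 3 and 1.5 months of age, called old and young, and skeletal muscles of germ cell–removed and control females and males at the same ages. Each of the 12 groups had 5 libraries from separate individuals, and male livers were not analysed here.

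Depth was low and uneven. Totals ran from 187635 to 256671 counts in old germ cell–removed livers, against 28062 to 124113 in old control livers. Young livers had 163968 to 253459 counts after germ cell removal and 48679 to 180764 in controls, and muscle libraries had 80573 to 221897. By their column names, reads of the 10 germ cell–removed livers had been subsampled and those of the 10 control livers had not, so treatment and this step cannot be told apart. The top gene of each library, FETUB after germ cell removal and a vitellogenin (an egg yolk precursor) or a gene without a symbol in controls, took 4.38 to 5.13% of counts in old germ cell–removed livers and 12.1 to 18.7% in old controls, and 4.81 to 6.39% against 17 to 18.1% at the young age. Liver markers were detected in all livers. Unless called plain, CPM are counts scaled to a library of 1000000 on totals adjusted by trimmed-mean (TMM) scaling. The 11 hepatocyte lines summed to 88144 to 105445 CPM in old germ cell–removed livers and 16624 to 36188 in old controls. At the young age these sums were 85371 to 110593 CPM after germ cell removal and 22823 to 34715 CPM in controls. Exocrine pancreas markers were present too, at 6008 to 20214 CPM in old germ cell–removed and 4719 to 11702 CPM in old control livers, and at 14483 to 62415 and 9571 to 24116 CPM in young ones. Macrophage markers summed to 292 to 722 against 51.3 to 407 CPM in old and to 288 to 863 against 99.8 to 239 CPM in young livers, with MPEG1 at 0 throughout, and endothelial markers to 42.3 to 71.0 against 12.3 to 41.6 CPM in old and 65.5 to 88.1 against 0 to 48.3 CPM in young livers. Muscle fibre markers summed to at most 89.7 CPM in any liver.

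Most of the genes were sparsely counted. All 49 were seen in at least 1 library, with totals over the 60 libraries from 1 to 3143 counts (median 115), and the 8 most counted had 1127 or more. A minimum of 10 counts over the libraries compared left 42 genes tested in at least 1 comparison, 36 of them in liver and 36 in muscle. The 7 never tested were TXNRD1, TXNRD2, GLRX5, GCLM, TXNDC12, TXNDC16 and TXNL4B. The modifier subunit of glutamate-cysteine ligase (GCLM, 2 counts) and the thioredoxin reductases (TXNRD1 with 10 counts, TXNRD2 with 1) therefore gave no test. GSTA5, an alpha-class transferase, stands on 2 lines that are kept apart by identifier. Nfu_g_1_005505 lies on scaffold00714 at 68975 to 70187, and Nfu_g_1_001605 on linkage group sgr15 at 37427820 to 37429936, near GSS, in the GRZ genome assembly of the count table. The sequences of these 2 lines were not compared. How the counting treated any reads that match both is not known, so values of the separate GSTA5 lines are uncertain to that extent. The short line GPX4 (4 OF 4), at 33398608 to 33399005 on sgr17, ends next to GPX4A, which starts at 33399042.

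Several of the genes differed between germ cell–removed and control female livers at both ages. In old livers catalase, SOD2, SOD1, both GSTA5 lines and the theta-class transferase GSTT1A were higher in germ cell–removed fish, and GLRX and PRDX2 were lower. In young livers the main test called the same 6 higher genes higher again, together with the zeta-class transferase GSTZ1 and PRDX1. No gene passed that test in the lower direction. A gene was called where edgeR's quasi-likelihood test gave a Benjamini-Hochberg adjusted p under 0.05. At 3 months this held for 8 of 31 genes tested (25.8%), against 9.15% of the 5576 genes tested in all. The 6 higher calls stand against 7.23% of all genes called higher, and the 2 lower calls against 1.92% called lower. With RLE factors and with DESeq2 the calls at 3 months were 4 higher (CAT, SOD2, GSTT1A and GSTA5 Nfu_g_1_001605) and 4 lower (GLRX, PRDX2, PRDX4 and TXNDC5), so SOD1 and GSTA5 Nfu_g_1_005505 were not among them. At 1.5 months 8 of 27 were called (29.6%), all higher, against 9.62% of 5459 genes called and 7.93% called higher. RLE factors and DESeq2 each gave 5 higher calls (GSTT1A, GSTA5 Nfu_g_1_005505, SOD1, GSTZ1 and PRDX1) and 1 lower (PRDX4). CAT, SOD2 and GSTA5 Nfu_g_1_001605 were thus not called by either at 1.5 months. Without control replicate 3 there were 5 calls, namely GSTT1A, GSTA5 Nfu_g_1_005505, GSTZ1, PRDX1 and GPX1B, the last of which is not among the 8. The all-gene shares depend on the filter. With edgeR's stricter filterByExpr, 384 of 1024 genes in all were called at 3 months and 349 of 1012 at 1.5 months. The shares of 25.8 and 29.6% were not set against genes of like counts. They therefore do not show more calls among the 49 than such genes have. Together the 49 genes took 0.522% ± 0.0411 of counts in old germ cell–removed livers and 0.353% ± 0.0784 in old controls (mean ± SD, n = 5 each). In young livers they took 0.606% ± 0.0721 after germ cell removal and 0.341% ± 0.0401 in controls. These shares are of plain library totals. On that scale tested genes in general were also higher after germ cell removal, with a median log2 change of 0.586 at 3 months and 0.686 at 1.5 months. The shares were not tested against that shift, so they do not show a rise of the 49 genes as a group.

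The scale of these changes moved with the normalization. Over all genes tested the log2 fold change had a median of 0.46 at 3 months and 0.44 at 1.5 months. Some changes are also given relative to that median. The others, among them those of SOD1, SOD2, both GSTA5 lines, GSTZ1 and young CAT, are not, and must be read against it. Of the calls over all genes at 3 months, 79.0% were higher with trimmed-mean (TMM) scaling, 59.1% with relative-log (RLE) size factors, 53.7% with DESeq2, 56.2% with edgeR's filterByExpr, and 51.4% with libraries thinned to equal depth. At 1.5 months these shares were 82.5, 54.3, 49.3, 44.4 and 54.8%. No call described here changed its sign in any setting. In bulk tissue, fewer cells of a type cannot be told apart from less RNA per cell. The hepatocyte markers moved with the treatment as well, with 9 of 11 called higher at 3 months (median log2 fold change 1.74) and 10 of 11 at 1.5 months (1.72). The exocrine pancreas markers were called higher for 1 of 7 lines tested at 3 months and 7 of 7 at 1.5 months. Their part in the results was not tested.

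Catalase had the lowest adjusted p of all these genes in old livers. CAT (sgr06, 52750540 to 52768769) stood at 787, 725, 596, 579 and 791 CPM in old germ cell–removed livers, against 216, 128, 286, 241 and 160 CPM in old controls. Every germ cell–removed library was above every control, with a log2 fold change of 1.62 ± 0.30 (SE; 1.16 above the all-gene median; edgeR adjusted p = 3.06e-06). In young livers CAT had 625, 574, 455, 654 and 646 CPM after germ cell removal and 324, 382, 177, 486 and 308 CPM in controls. The young groups overlapped, since the lowest germ cell–removed library lay below the highest control, and the difference was 0.86 ± 0.21 (adjusted p = 0.00251). The young call was lost in 8 of 19 alternatives, with adjusted p up to 0.167, among them leaving out control replicate 1, 2, 3 or 5, and the old call only with thinned libraries (0.081).

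Both intracellular superoxide dismutases were higher after germ cell removal. SOD2 (sgr04, 50450058 to 50453335) measured 161, 183, 179, 156 and 191 CPM in old germ cell–removed livers and 66.5, 25.7, 40.8, 33.3 and 73.9 CPM in old controls. The groups were fully separate, and the difference was 1.71 ± 0.41 on the log2 scale (adjusted p = 0.000686; 0.25 with thinned libraries), with 17 counts over the 5 controls. In young livers SOD2 had 183, 224, 278, 284 and 247 CPM after germ cell removal and 114, 175, 48.3, 255 and 81 CPM in controls, which overlapped. That young difference, 0.80 ± 0.27, barely passed (adjusted p = 0.0438). It was lost in 16 of 19 alternatives with adjusted p up to 0.451, among them leaving out any 1 germ cell–removed library or control replicate 1, 2, 3 or 5.

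SOD1, the copper-zinc enzyme (sgr11, 33904160 to 33906302), showed the same direction at both ages. It measured 391, 370, 288, 245 and 383 CPM in old germ cell–removed livers, against 166, 77, 224, 166 and 73.9 CPM in old controls. The groups did not overlap, and the log2 fold change was 1.12 ± 0.32 (adjusted p = 0.00892). Young germ cell–removed livers had 539, 405, 622, 619 and 605 CPM, and young controls 267, 316, 193, 409 and 324 CPM. Here 1 germ cell–removed library lay just under the highest control, and the difference was 0.94 ± 0.21 (adjusted p = 0.000796). The old call was lost without control replicate 5 (0.0677), with RLE factors (0.0715), filterByExpr (0.0555), DESeq2 (0.0579) and thinned libraries (0.561). The young call was lost without control replicate 3 (0.078), with filterByExpr (0.0503) and with thinned libraries (0.0714). SOD3, the secreted enzyme, passed at neither age. It averaged 213 ± 33.0 CPM in old germ cell–removed and 107 ± 62.2 CPM in old control livers (0.80 ± 0.34, adjusted p = 0.123; 0.0459 with plain totals), and 215 ± 46.4 against 242 ± 72.9 CPM in young ones (-0.10 ± 0.24, adjusted p = 0.865).

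**Figure D1:**
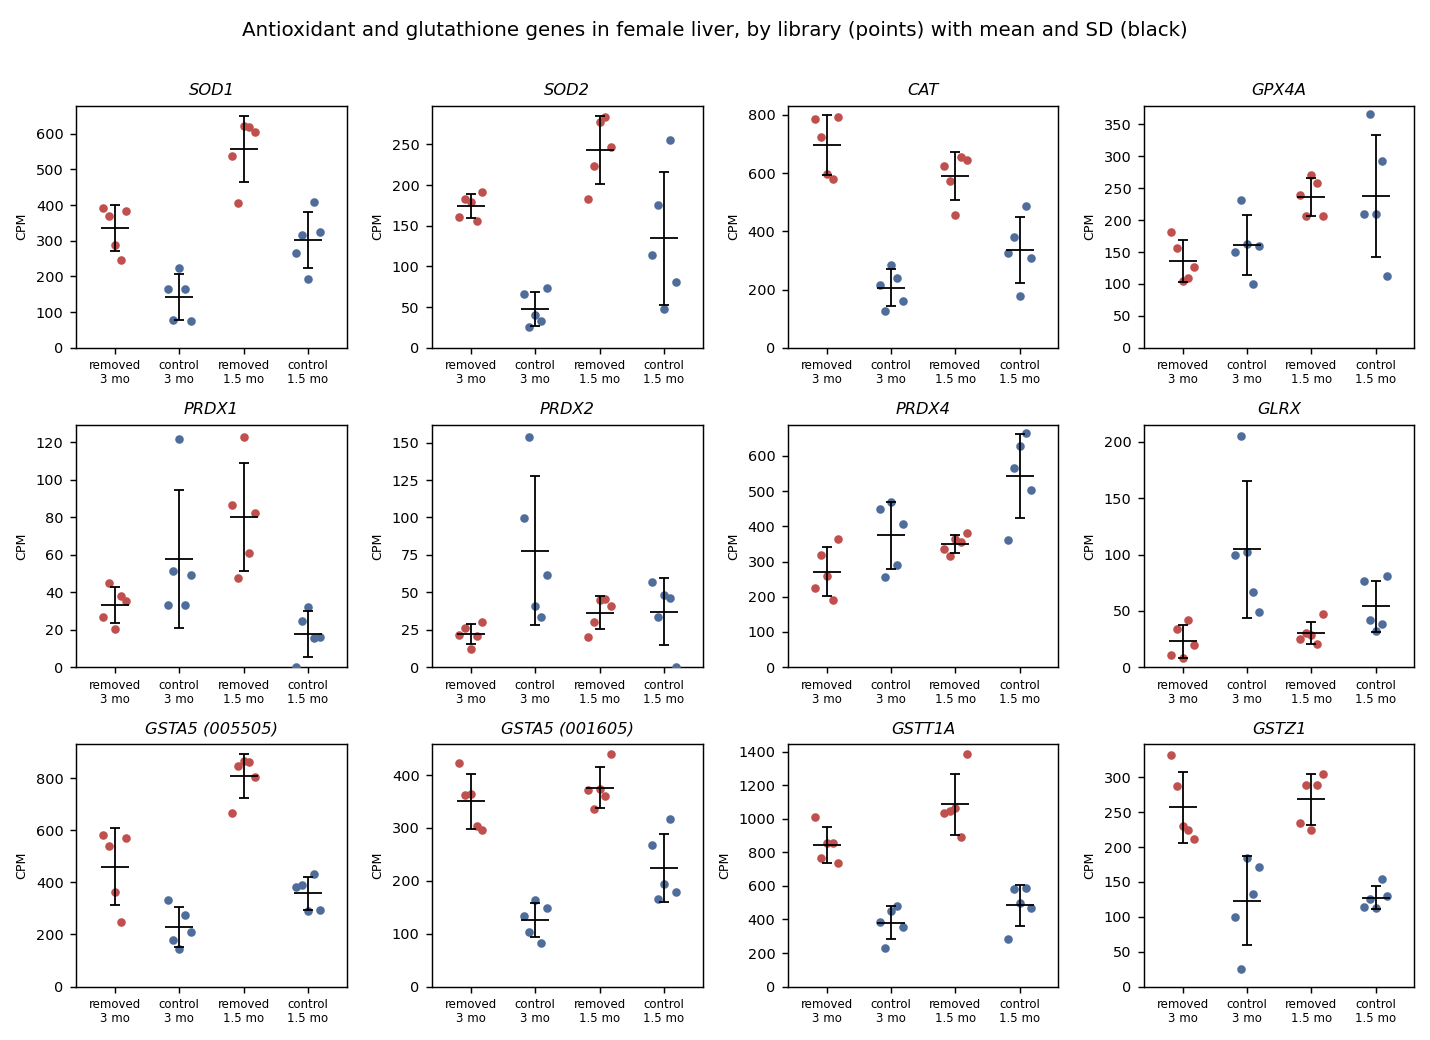
Expression of 12 of the genes in female liver, in CPM on TMM-scaled library sizes (linear axis from 0), by group: germ cell–removed and control at 3 months, then germ cell–removed and control at 1.5 months. Points are the 5 libraries of a group and black bars the mean ± SD; CAT at 3 months shows germ cell–removed libraries from 579 to 791 CPM, all above controls of 128 to 286 CPM, whereas GLRX and PRDX2 at 3 months lie lower after germ cell removal.

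Among the 7 glutathione S-transferase genes, 3 of 7 tested were called higher in old livers and 4 of 5 in young livers. Over all genes tested, 7.23% were called higher at 3 months and 7.93% at 1.5 months. With filterByExpr, 216 of 1024 and 155 of 1012 genes in all were called higher. GSTT1A (sgr11, 6634067 to 6646345) measured 1012, 766, 856, 858 and 735 CPM in old germ cell–removed livers and 382, 231, 449, 483 and 357 CPM in old controls. In young livers it had 1037, 1048, 1065, 893 and 1386 CPM after germ cell removal and 286, 582, 499, 587 and 470 CPM in controls. No library of either age crossed between the groups. The log2 fold changes were 1.01 ± 0.28 at 3 months (0.55 above the all-gene median; adjusted p = 0.00578) and 1.22 ± 0.19 at 1.5 months (0.78 above it; adjusted p = 9.74e-07). GSTT1A was called in all 19 alternatives run for it at each age, with adjusted p up to 0.042 at 3 months and 0.00287 at 1.5 months.

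Both GSTA5 lines were called at both ages. GSTA5 Nfu_g_1_005505 measured 583, 538, 361, 249 and 569 CPM in old germ cell–removed livers, against 332, 180, 143, 275 and 209 CPM in old controls. It was the only called gene at 3 months whose groups overlapped (0.87 ± 0.30, adjusted p = 0.0409), and that call was lost in 10 of 19 alternatives, with adjusted p up to 0.458. Dropping any 1 of control replicates 2, 3 and 5, or of germ cell–removed replicates 1 and 5, ended it, as did the replicate block (0.127). Young germ cell–removed livers had 666, 845, 864, 862 and 805 CPM and young controls 381, 391, 290, 432 and 292 CPM. These groups were separate (1.24 ± 0.20, adjusted p = 1.22e-06), and only thinning removed the call (0.125).

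GSTA5 Nfu_g_1_001605 had 423, 363, 365, 304 and 297 CPM in old germ cell–removed livers and 133, 103, 163, 83.2 and 148 CPM in old controls. The difference was 1.39 ± 0.33 with no overlap (adjusted p = 0.000667; 0.186 with thinned libraries). In young livers the line stood at 371, 336, 373, 360 and 440 CPM after germ cell removal and 267, 166, 193, 317 and 178 CPM in controls. These groups also did not overlap, yet the change of 0.82 ± 0.23 (adjusted p = 0.00999) was lost in 13 of 19 alternatives, with adjusted p up to 0.592. Dropping any 1 of control replicates 1, 2, 3 and 5, or of germ cell–removed replicates 2, 3 and 5, was enough.

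GSTZ1, which acts in tyrosine breakdown as maleylacetoacetate isomerase (sgr16, 32709056 to 32711529), was called only at 1.5 months. It measured 234, 289, 225, 289 and 305 CPM in young germ cell–removed livers and 114, 125, 113, 154 and 130 CPM in young controls, with no overlap (1.13 ± 0.26, adjusted p = 0.000835; 0.163 with thinned libraries). In old livers it had 332, 288, 231, 224 and 212 CPM after germ cell removal and 99.7, 25.7, 184, 133 and 172 CPM in controls. Those groups were separate as well, but the difference of 0.88 ± 0.33 did not pass (adjusted p = 0.0729), except without control replicate 3 (0.0421), with plain totals (0.0167), without genes over 1% of a library (0.0434) and in the fit of all 4 groups (0.0209). The test of the difference between ages, for GSTZ1, gave -0.06 ± 0.43 (adjusted p = 1.0). GSTT1B had 1.06 ± 0.75 at 3 months (adjusted p = 0.446) and 0.95 ± 0.52 at 1.5 months (adjusted p = 0.312), and GSTK1 and GSTCD, tested at 3 months only, did not pass.

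Of 6 peroxiredoxins tested at each age, 1 was called lower at 3 months and 1 higher at 1.5 months. Among all genes tested, 1.92% were called lower at 3 months and 7.93% higher at 1.5 months. Single calls out of 6 are no result about the family. PRDX2, a cytosolic thioredoxin peroxidase (sgr02, 29362602 to 29368069), measured 21.4, 26.2, 12.2, 21.1 and 30.2 CPM in old germ cell–removed livers, against 99.7, 154, 40.8, 33.3 and 61.6 CPM in old controls. All 5 germ cell–removed libraries were below all 5 controls. The log2 fold change was -1.71 ± 0.49 (-2.16 relative to the all-gene median; adjusted p = 0.00985), and it rested on 25 counts after germ cell removal and 23 in controls. Leaving out control replicate 1 (adjusted p = 0.0505) or 2 (0.0859) ended the call. In young livers PRDX2 averaged 36.5 ± 10.9 CPM after germ cell removal and 37.0 ± 22.4 CPM in controls (0.05 ± 0.49, adjusted p = 0.976).

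PRDX1, another cytosolic thioredoxin peroxidase (sgr09, 55987072 to 55992819), was called at 1.5 months. It had 86.4, 47.4, 123, 60.9 and 82.2 CPM in young germ cell–removed livers and 0, 24.9, 32.2, 15.4 and 16.2 CPM in young controls. The groups were separate and the log2 fold change was 2.14 ± 0.49 (1.70 above the all-gene median; adjusted p = 0.00107; 0.279 with thinned libraries), but the controls held only 8 counts together. In old livers PRDX1 stood at 26.8, 44.9, 20.3, 38.1 and 35.3 CPM after germ cell removal and 33.2, 51.3, 122, 33.3 and 49.3 CPM in controls. There the difference was -0.76 ± 0.49 and did not pass (adjusted p = 0.389).

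PRDX4, the peroxiredoxin of the endoplasmic reticulum (sgr11, 14540245 to 14543475), had negative differences that did not pass the main test. It measured 225, 318, 260, 190 and 363 CPM in old germ cell–removed livers and 449, 257, 469, 291 and 407 CPM in old controls (-0.57 ± 0.29, adjusted p = 0.224). In young livers it had 335, 315, 364, 355 and 382 CPM after germ cell removal and 362, 565, 628, 664 and 502 CPM in controls (-0.57 ± 0.20, adjusted p = 0.0564). Relative to the all-gene medians these values were -1.03 and -1.01. PRDX4 did pass as lower in other settings: at 1.5 months with RLE factors (adjusted p = 0.000696), DESeq2 (2.22e-05), filterByExpr (3.36e-05), thinned libraries (0.00928) and without genes over 1% of a library (0.0202), and at 3 months with RLE factors (0.0134), DESeq2 (0.0155) and filterByExpr (0.00529). Leaving out young control replicate 1, 2 or 5 or young germ cell–removed replicate 1, 3, 4 or 5 also brought PRDX4 past the threshold at 1.5 months, with adjusted p of 0.00697 to 0.0347. TXNDC5, a disulfide isomerase of the same compartment, passed as lower at 3 months with RLE factors (0.0387), DESeq2 (0.0364) and filterByExpr (0.0166), and at 1.5 months with filterByExpr (0.0498). Its main values were -0.77 ± 0.35 (adjusted p = 0.164) and -0.40 ± 0.30 (adjusted p = 0.496).

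PRDX3, PRDX5 and PRDX6 passed at neither age. PRDX6, which also acts on phospholipids, had 85.2 to 131 CPM in old germ cell–removed livers and 25.7 to 81.6 CPM in old controls, groups that did not overlap, with a difference of 0.47 ± 0.40 (adjusted p = 0.548). Young livers had 88.1 ± 17.8 CPM after germ cell removal and 95.4 ± 41.8 CPM in controls. Mitochondrial PRDX3 had at most 11 counts in any liver group, and PRDX5 averaged 41.1 ± 8.91 against 40.2 ± 39.1 CPM in old and 44.5 ± 8.98 against 24.6 ± 15.6 CPM in young livers.

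GLRX, the cytosolic glutaredoxin (sgr10, 38679163 to 38694140), was the gene with the largest drop among the calls. Old germ cell–removed livers had 10.7, 33.6, 8.11, 42.3 and 20.1 CPM and old controls 99.7, 205, 102, 66.6 and 49.3 CPM. The groups did not overlap, with a log2 fold change of -2.04 ± 0.45 (-2.50 relative to the all-gene median; adjusted p = 0.000197; 0.0793 with thinned libraries), on 27 counts after germ cell removal and 31 in controls. Young livers had 25.4, 30.2, 28.7, 20.3 and 47 CPM after germ cell removal and 76.3, 41.6, 32.2, 38.6 and 81 CPM in controls, which overlapped (-0.65 ± 0.46, adjusted p = 0.46). GLRX2 and GLRX3 did not pass.

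The 2 glutathione peroxidases tested gave 0 calls by edgeR or DESeq2 at either age. At 1.5 months 1 of them had an unadjusted p under 0.05, as had 20.3% of all genes tested. GPX4A, which reduces lipid peroxides in membranes, averaged 136 ± 32.7 CPM in old germ cell–removed and 161 ± 46.8 CPM in old control livers (-0.28 ± 0.34, adjusted p = 0.702), and 236 ± 29.4 against 238 ± 95.6 CPM in young ones (-0.002 ± 0.23, adjusted p = 1.0). GPX1B, a cytosolic peroxidase, had 24 counts in young germ cell–removed livers and 2 in young controls (2.17 ± 0.87, adjusted p = 0.111; 0.0214 without control replicate 3 and 0.0475 with plain totals). At 3 months its difference was 0.12 ± 0.76. GPX1A, GPX4B, GPX4 (4 OF 4), GPX7 and GPX8 had 3 to 12 counts each over the 20 livers and were under the minimum in both comparisons.

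The tested genes of glutathione synthesis and recycling, the thioredoxin domain genes and TXNIPA did not pass the main test in liver either. No gene taken has the symbol TXN alone. Thioredoxin 2 (TXN2) had 8 counts over the 20 livers and was not tested there, nor were the reductases TXNRD1 and TXNRD2. A TXNDC2 line described as thioredoxin, Nfu_g_1_003608, had 2 counts there and was not tested either. Of the 3 synthesis and recycling genes, 0 were called by edgeR or DESeq2. At 1.5 months 1 of them had an unadjusted p under 0.05, as had 20.3% of all genes tested. GCLC averaged 31.7 ± 7.39 CPM in old germ cell–removed and 15.7 ± 15.1 CPM in old control livers (0.76 ± 0.66, adjusted p = 0.56), and 35.2 ± 7.93 against 18 ± 23.4 CPM in young ones (1.33 ± 0.63, adjusted p = 0.209). GSR had log2 differences of 1.43 ± 1.19 at 3 months and -0.12 ± 0.67 at 1.5 months, and GSS -0.87 ± 0.79 and -0.74 ± 0.60. TXNIPA, a thioredoxin inhibitor, varied widely within groups, with 428, 953, 1006, 228 and 126 CPM in old germ cell–removed livers and 515, 770, 755, 316 and 185 CPM in old controls. In young livers it had 488, 164, 340, 1050 and 834 CPM after germ cell removal and 458, 515, 435, 371 and 600 CPM in controls. The groups overlapped widely, with differences of 0.07 ± 0.28 (adjusted p = 0.92) and 0.37 ± 0.25 (adjusted p = 0.443).

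**Figure D2:**
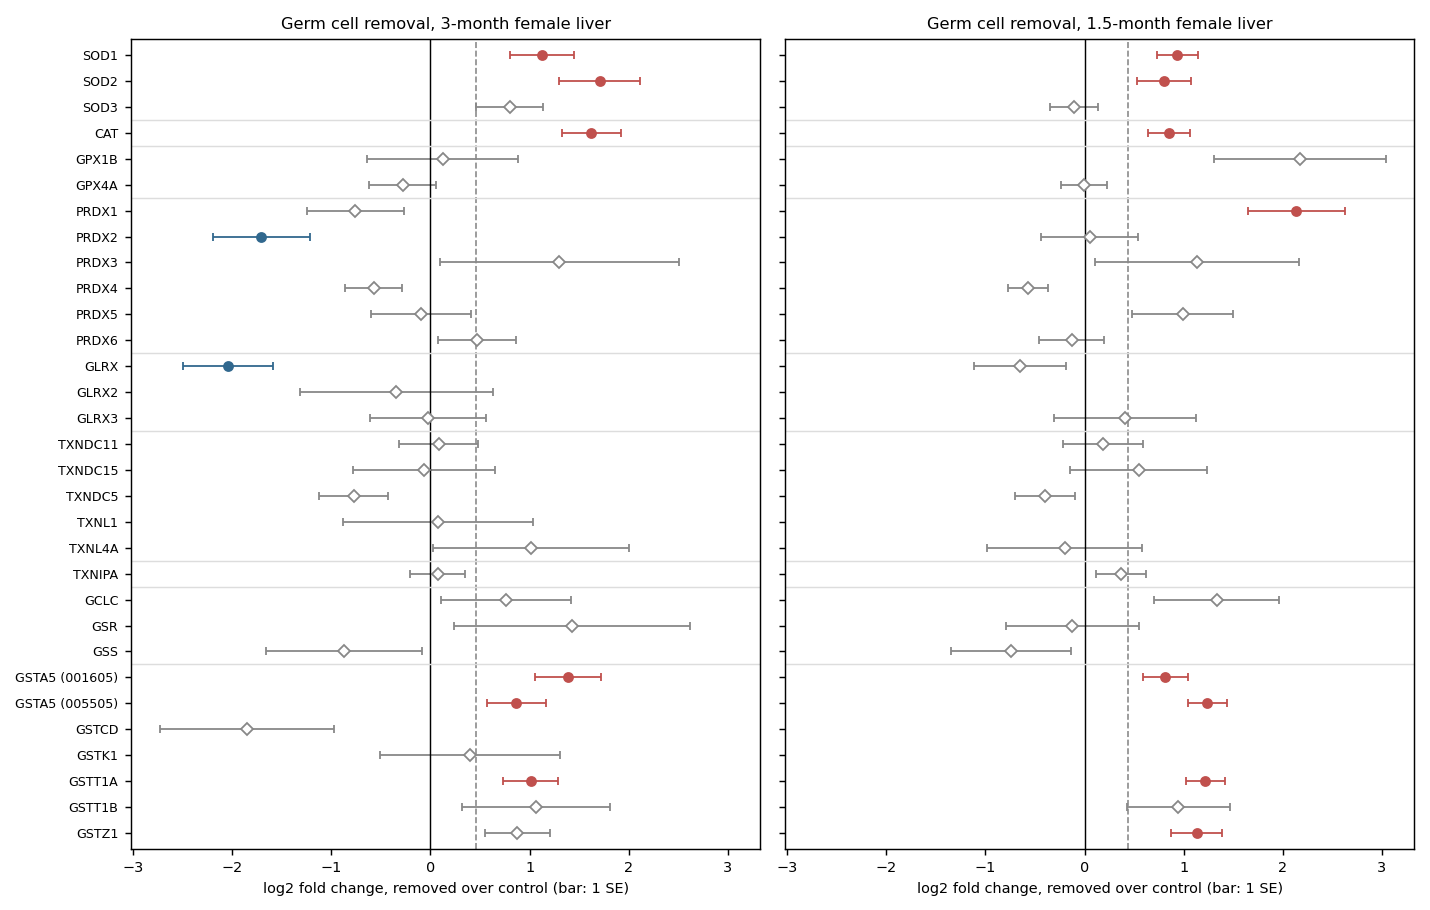
Log2 fold changes of the genes tested in female liver, germ cell–removed over control, at 3 months (left) and 1.5 months (right); bars are 1 SE, filled circles passed the edgeR test (red higher, blue lower), open diamonds did not, and the dashed line is the median over all genes tested, 0.46 at 3 months and 0.44 at 1.5 months. At 3 months CAT (1.62) and SOD2 (1.71) lie far to the right and GLRX (-2.04) and PRDX2 (-1.71) to the left, and at 1.5 months every call lies to the right.

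Whether the response to germ cell removal differed between the ages was tested with an interaction term over the 20 livers. No gene of the 36 tested passed, against 0.109% of 7349 genes. DESeq2 also called 0 of them. An unadjusted p under 0.05 was found for 6.55% of the 7349 genes and for 5 of the 36. PRDX1 came closest, with a difference of -2.71 ± 0.72 between the log2 fold changes at 3 and 1.5 months (edgeR adjusted p = 0.104). The other 4 were CAT (0.96 ± 0.36), SOD3 (1.09 ± 0.42), SOD2 (1.1 ± 0.49) and PRDX2 (-1.57 ± 0.68), with adjusted p between 0.627 and 0.661. The calls at a single age are therefore not shown to differ between ages.

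Age was compared next, within each treatment. These comparisons share their libraries with those above, so the values of each stand on their own. In germ cell–removed livers 4 of 31 genes were called (12.9%), all lower at 3 than at 1.5 months, against 3.59% of 6694 genes called in either direction and 1.75% called lower. DESeq2 called 4. The median log2 fold change was -0.23 over the 31 genes and 0.02 over all genes. Of the 31 genes, 4 had no overlap between the ages, namely the 4 called. Over all 6694 genes, 131 were separate and lower in old livers and 150 separate and higher. Genes that pass the test tend to be separate, so this is no added evidence.

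GSTA5 Nfu_g_1_005505 fell to 460 ± 148 CPM in old germ cell–removed livers, against 808 ± 83.3 CPM in young ones (-0.85 ± 0.20, adjusted p = 0.0127). SOD1 fell to 335 ± 65.0 CPM, against 558 ± 91.8 CPM (-0.77 ± 0.19, adjusted p = 0.0169). PRDX1 fell to 33.0 ± 9.64 CPM, against 80.0 ± 28.8 CPM (-1.28 ± 0.32, adjusted p = 0.0173). The phospholipid peroxidase GPX4A (sgr17, 33399042 to 33401264) stood at 182, 157, 105, 110 and 126 CPM in old and 239, 207, 270, 259 and 206 CPM in young germ cell–removed livers. The difference was -0.83 ± 0.21 (adjusted p = 0.0222), and the call was lost with thinned libraries (0.0739) and in the fit of all 4 liver groups (0.0536). Replicate 3 of either age mattered: without that of the old fish 0 genes were called (GSTA5 0.0537, SOD1 0.0586, PRDX1 0.0694, GPX4A 0.0789), and without that of the young fish GSTA5 alone was called (SOD1 0.0514, PRDX1 0.0948, GPX4A 0.0702). CAT (0.20 ± 0.18), SOD2 (-0.51 ± 0.20, adjusted p = 0.208; 0.0308 with filterByExpr), GSTT1A (-0.40 ± 0.17, adjusted p = 0.288) and PRDX4 (-0.40 ± 0.20) were not called. The exocrine pancreas markers were lower in old livers in 7 of 7 lines tested, in germ cell–removed and in control fish, and their part in these results was not tested.

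In control livers 0 of 23 genes were called by edgeR, against 2.04% of 3385 genes. DESeq2 also called 0. An unadjusted p under 0.05 was found for 10.1% of the 3385 genes and for 6 of the 23. All 3 superoxide dismutases were among them, with lower means in old fish: SOD2 averaged 48.0 ± 21.1 CPM in old and 135 ± 81.8 CPM in young controls (-1.36 ± 0.42, adjusted p = 0.0592), SOD1 142 ± 64.9 and 302 ± 79.4 CPM (-0.88 ± 0.31, adjusted p = 0.116), and SOD3 107 ± 62.2 and 242 ± 72.9 CPM (-0.87 ± 0.33, adjusted p = 0.189). The other 3 had positive log2 differences, PRDX1 1.65 ± 0.64, GLRX 1.1 ± 0.47 and PRDX2 1.07 ± 0.53, with adjusted p of 0.214, 0.304 and 0.464. SOD2 passed as lower with RLE factors (0.0375), without genes over 1% of a library (0.0335) and in the fit of all 4 groups (0.0263), where SOD1 passed too (0.047). Leaving out young control replicate 1 (0.0201), 3 (0.0189) or 5 (0.0243) or old control replicate 1 (0.0352) also brought SOD2 past the threshold, and leaving out young control replicate 1 (0.0419) or old control replicate 3 (0.0398) did so for SOD1.

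**Figure D3:**
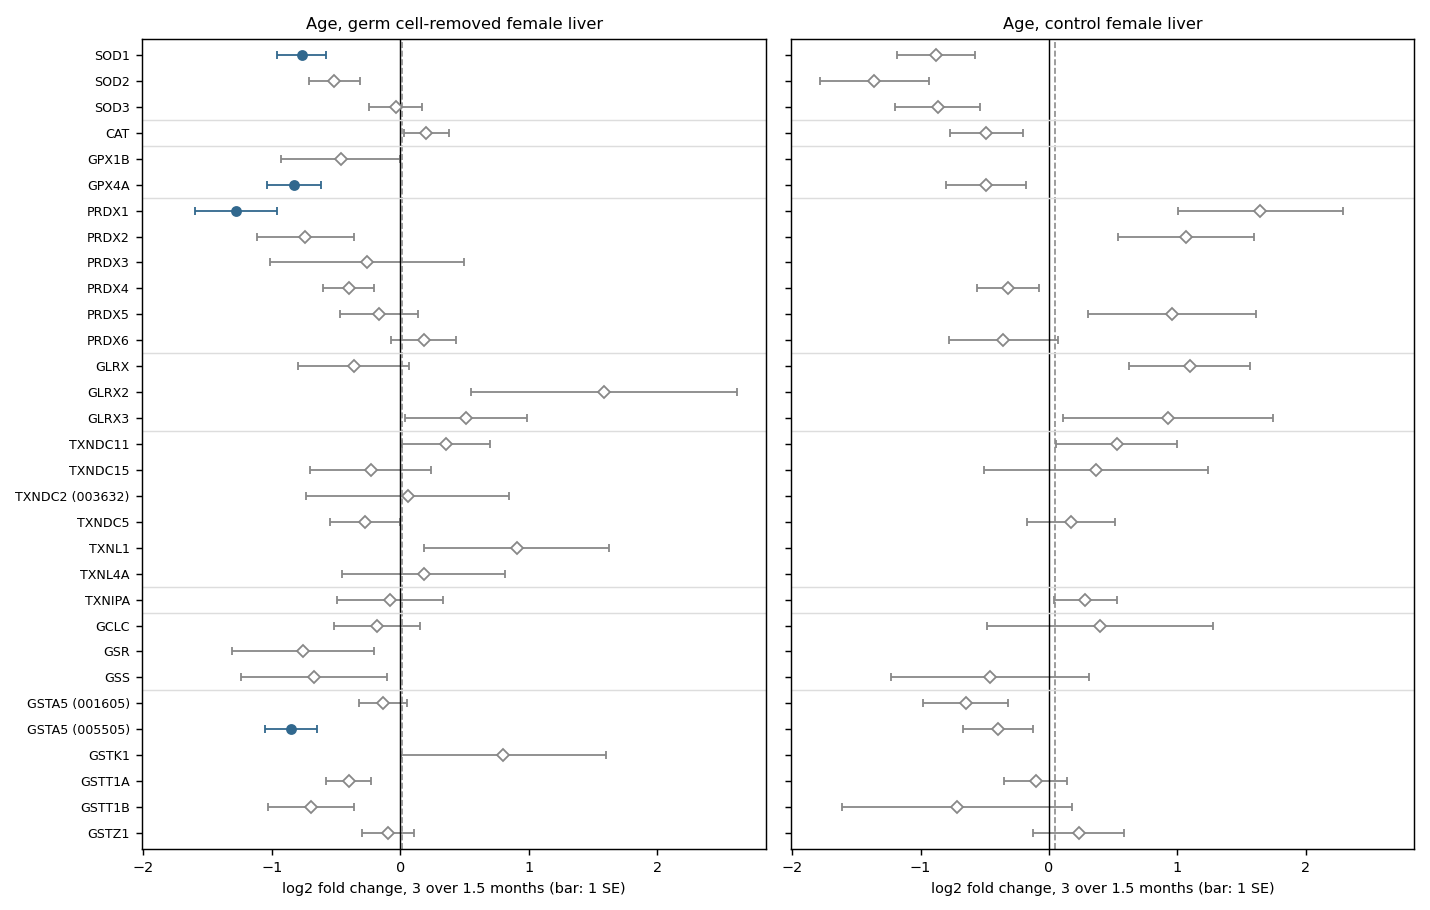
Log2 fold changes of the genes tested in female liver, 3 months over 1.5 months, in germ cell–removed (left) and control livers (right); bars are 1 SE, filled circles passed the edgeR test, open diamonds did not, and the dashed line is the all-gene median. On the left SOD1 (-0.77), GPX4A (-0.83), PRDX1 (-1.28) and GSTA5 Nfu_g_1_005505 (-0.85) passed; on the right none did, and SOD2 (-1.36) lies farthest to the left.

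Other genes around these enzymes were read from the same fits in 5 lists. Their counts stand against 7.23% of all genes called higher and 1.92% lower at 3 months. At 1.5 months 7.93% of all genes were called higher, and 92 of 5459 lower. The lists were not set against genes of like counts. Of 16 lines tested from the axis of the stress factor NRF2, 4 were called higher in old germ cell–removed livers (median 0.74, against 0.46 over all genes), and 5 of 13 in young ones (0.78, against 0.44). They included TKT, transketolase of the pentose phosphate pathway (1.93 ± 0.37, adjusted p = 7.99e-06 at 3 months; 1.37 ± 0.23, 2.9e-06 at 1.5 months). TALDO1 of the same pathway was called at both ages (1.17 ± 0.34 and 0.91 ± 0.23). DESeq2 called 2 and 3 of the list's lines. HMOX1 (1.14 ± 0.35), the heme-degrading enzyme, was called at 3 months. The ferritin light chain FTL (1.18 ± 0.21) and IDH1 (0.78 ± 0.23) were called at 1.5 months.

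Of 9 tested genes that make peroxide or superoxide, 2 were called higher at 3 months (median 1.26) and 5 at 1.5 months (1.13), against 1 and 2 with DESeq2. XDH, a purine oxidase, rose by 2.06 ± 0.39 and 1.42 ± 0.31, and the peroxisomal oxidase HAO2 by 1.43 ± 0.41 and 1.38 ± 0.28 on the log2 scale. AOX1 (1.79 ± 0.51), UOX (0.82 ± 0.24) and ACOX3 (1.13 ± 0.37) were called at 1.5 months. In the methionine cycle and transsulfuration list, which supplies cysteine, 4 of 12 were higher and 1 lower at each age (3 calls at each with DESeq2; medians 0.67 and 0.48). The cystathionine enzymes CBS (1 OF 2) (2.19 ± 0.42 and 0.99 ± 0.34) and CTH (1.19 ± 0.32 and 1.23 ± 0.27) and the betaine enzyme BHMT (1.39 ± 0.42 and 2.17 ± 0.36) were higher at both ages, and the serine enzyme PSAT1 was lower (-2.77 ± 0.58 and -2.46 ± 0.51). MAT1A was higher at 3 months (0.79 ± 0.27) and AHCY at 1.5 months (0.62 ± 0.19). Glutathione turnover had 0 of 6 called by edgeR at 3 months, and 1 with DESeq2. At an unadjusted p under 0.05 it had 2, against 21.4% of all genes tested. CHAC1, which degrades glutathione, was called lower at 1.5 months (-1.95 ± 0.50, adjusted p = 0.0045). Of the selenoprotein list, SEPHS1 was lower at 3 months (-1.83 ± 0.62, adjusted p = 0.0381), with 1 of 8 called, and 0 of 5 were called at 1.5 months by edgeR or DESeq2 (0 at an unadjusted p under 0.05).

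With age, SLC7A11, the cystine importer, was higher (2.45 ± 0.31, adjusted p = 7.75e-06) and TKT lower (-0.83 ± 0.19, adjusted p = 0.00749) in old germ cell–removed livers. In old controls HMOX1 was higher (2.56 ± 0.56, adjusted p = 0.000598) and TKT lower (-1.32 ± 0.38, adjusted p = 0.0313). Over all genes, 3.59% of 6694 were called with age in germ cell–removed livers and 2.04% of 3385 in control livers.

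In skeletal muscle the genes took a smaller share of counts, from 0.0918% in young germ cell–removed males to 0.170% in old control females (means of 5 libraries). Age gave a single call in muscle. SOD2 in germ cell–removed females measured 356, 269, 458, 343 and 249 CPM at 3 months and 212, 217, 152, 148 and 59.9 CPM at 1.5 months. Every old library was above every young one, with a difference of 0.88 ± 0.24 on the log2 scale (0.70 above the all-gene median; adjusted p = 0.00849). This was 1 of 26 genes tested, against 6.26% of 5368 genes called and 3.17% called higher, and DESeq2 also called it. Without old replicate 3 the call was lost (0.0527), and GSTA5 Nfu_g_1_001605 or TXNL1 joined it without old replicate 1 or 5 or young replicate 2 or 4, for up to 3 calls. In control females SOD2 had 260, 265, 236, 305 and 287 CPM in old and 170, 171, 220, 215 and 251 CPM in young muscle, with a difference of 0.25 ± 0.19 (adjusted p = 0.64; 0.0375 with plain totals). The test of the difference between the treatments gave 0.61 ± 0.32 (adjusted p = 0.876). CAT in germ cell–removed females was also separate between ages, at 82.1 ± 22.2 CPM in old and 39.6 ± 11 CPM in young muscle, but did not pass (0.90 ± 0.36, adjusted p = 0.133; 0.0161 with filterByExpr and 0.0035 with plain totals).

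The other age comparisons of muscle gave 0 calls by edgeR and 0 by DESeq2. They covered 25 genes in control females, where 4.13% of 5611 genes were called. Of the 25, 2 had an unadjusted p under 0.05, against 15.7% of the 5611. In control males 3 of 22 genes had such a p, against 16.4% of 5185 genes, and 4.98% of the 5185 were called. In germ cell–removed males it was 4 of 22, against 15.4% of 5227 genes, and 3.42% of the 5227 were called. PRDX6 came close in males of both treatments. It had 20.9, 94.4, 48.8, 114 and 75.7 CPM in old and 33.8, 18.3, 25.9, 28.1 and 31.1 CPM in young germ cell–removed males (1.24 ± 0.40, adjusted p = 0.0783), which overlapped through 1 old library. It passed without old replicate 1 (0.0192) or 3 (0.0311) and with plain totals (0.00564). In control males it had 61.7, 86.8, 17.4, 100 and 56.6 CPM in old and 9.62, 0, 36.9, 30.7 and 30.7 CPM in young fish (1.3 ± 0.45, adjusted p = 0.0723; 0.0256 without old replicate 3 and 0.00167 with plain totals). TXNIPA in control females differed by 0.98 ± 0.33 between old and young (adjusted p = 0.109; 0.00702 without old replicate 4).

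The muscle libraries also differed with age in marker levels. The 11 muscle fibre markers summed to 53784 to 105607 CPM over the old groups and to 116528 to 174541 CPM over the young ones. They were called lower in old muscle in 7 of 11 lines in germ cell–removed females, 4 in control females, 6 in germ cell–removed males and 7 in control males. Over all genes, in the same order, 166 of 5368, 145 of 5611, 79 of 5227 and 106 of 5185 were called lower. Hepatocyte markers reached 1775 CPM in old germ cell–removed males, against 377 CPM in young ones, and 1576 against 85.9 CPM in control males. Their part in the age differences was not tested. FTL was the 1 listed gene called higher in old muscle of all 4 groups: by 0.95 ± 0.24 (adjusted p = 0.00519) and 1.41 ± 0.32 (0.0114) in germ cell–removed and control females, and by 2.27 ± 0.42 (0.000966) and 1.49 ± 0.27 (3.89e-05) in germ cell–removed and control males. CHAC1 (1 OF 2) was higher in old females, by 4.17 ± 0.89 after germ cell removal and 4.86 ± 1.14 in controls.

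**Figure D4:**
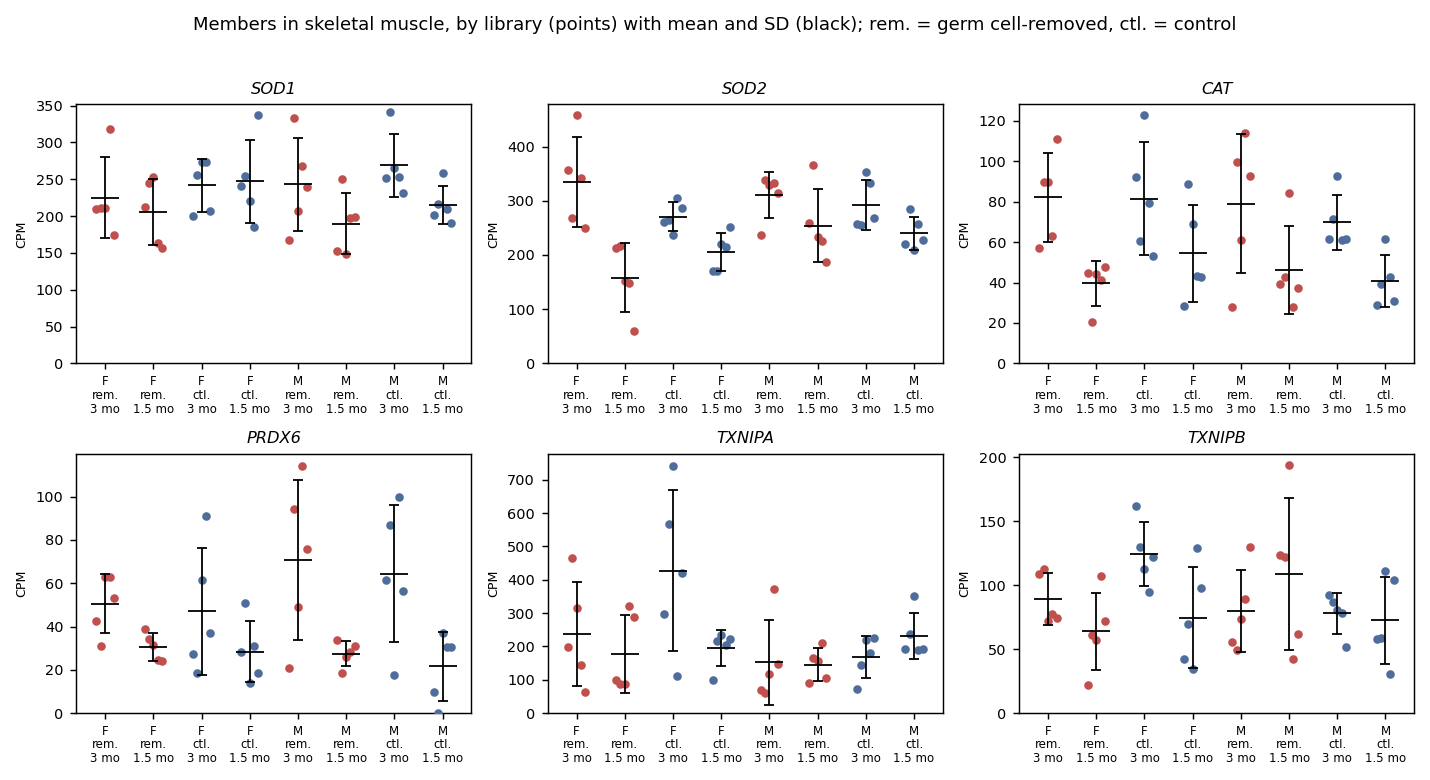
Expression of 6 of the genes in skeletal muscle, in CPM on TMM-scaled library sizes (linear axis from 0), for germ cell–removed and control females (F) and males (M) at 3 and 1.5 months. Points are the 5 libraries of a group and black bars the mean ± SD; SOD2 in germ cell–removed females runs from 249 to 458 CPM at 3 months and from 59.9 to 217 CPM at 1.5 months, and TXNIPA spreads from 111 to 741 CPM within old control females.

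Germ cell removal called none of the genes in muscle, by edgeR or by DESeq2. In old females 24 were tested, where 0.198% of 6050 genes were called and 5.8% had an unadjusted p under 0.05. Of the 24, 2 had such a p. They were PRDX2 (1.32 ± 0.56, adjusted p = 0.783) and TXNIPA (-0.84 ± 0.36, adjusted p = 0.783; 0.0411 with every gene of at least 1 count). In young females 23 were tested and 0 had such a p, against 7.01% of 4696 genes, and 0.106% of the 4696 were called. In old males it was 1 of 25, PRDX5 (-2.1 ± 0.74, adjusted p = 0.987), against 3.29% of 5778 genes, and 0% of the 5778 were called. In young males it was 1 of 21, TXNIPA (-0.66 ± 0.23, adjusted p = 0.5), against 4.89% of 4414 genes, and 0.136% of the 4414 were called. CAT averaged 82.1 ± 22.2 CPM in old germ cell–removed and 81.5 ± 27.7 CPM in old control females, and SOD2 335 ± 82.8 and 270 ± 26.2 CPM (0.31 ± 0.20, adjusted p = 0.92).

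Sex was compared in muscle as female over male. No gene was called in any of the 4 comparisons by either tool: 0 of 25 in old germ cell–removed (0.0504% of 5953 genes called), 0 of 24 in old control (0.254% of 5917), 0 of 21 in young germ cell–removed (1.19% of 4466) and 0 of 21 in young control muscle (0.387% of 4654). At an unadjusted p under 0.05 there were 1, 2, 2 and 0 of the genes, against 6.25, 6.07, 8.31 and 9.65% of all genes tested. TXNIPA in old controls came closest, with 298, 567, 741, 111 and 419 CPM in females and 71.9, 143, 220, 179 and 226 CPM in males (1.32 ± 0.34, adjusted p = 0.0929; 0.000826 without female replicate 4). The 4 interaction tests in muscle, age by germ cell removal in females (31 of the genes) and males (32), and sex by germ cell removal in old (34) and young fish (30), called 0% of 7449, 7135, 7805 and 6512 genes. DESeq2 called 0 of these genes in each, and 0, 1, 2 and 0 had an unadjusted p under 0.05. Over all genes tested, in the same order, 5.58, 3.94, 5.06 and 5.41% had such a p.

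Liver and muscle of females were set side by side without a test, because each tissue was 1 library pool and tissue and pool cannot be told apart. On plain CPM, 9 of 42 genes were higher in all 20 livers than in any of the 20 muscles, against 3.65% of 9800 genes, and 1 was higher in all muscles, against 3.98%. The 9 were GSTT1A (median 664 CPM in liver and 0 in muscle), GSTA5 Nfu_g_1_005505 (387 and 18.9), GSTA5 Nfu_g_1_001605 (301 and 32.6), GSTZ1 (220 and 16), CAT (394 and 59.3), PRDX4 (371 and 43.4), GPX4A (192 and 0), GLRX (32.9 and 0) and TXNDC11 (65.4 and 2.44). With control libraries alone 9 of 35 genes were higher in all livers, against 434 of 7142 genes, and 2 were higher in all muscles, against 589 of 7142. The reverse held for TXNIPB, the second copy of the thioredoxin inhibitor, with 0 to 11.4 CPM in livers and 19.5 to 161 CPM in muscles. Its paralog TXNIPA was abundant in both tissues (medians 454 and 206 CPM). SOD1 (290 and 229 CPM) and SOD2 (170 and 234 CPM) overlapped between tissues, whereas SOD3 had 35.6 to 282 CPM in livers and 0 to 38.8 CPM in muscles, crossing narrowly. PRDX3, the mitochondrial peroxiredoxin, had a median of 0 CPM in liver and 27.1 CPM in muscle. A zero here is limited by depth, since 3 counts correspond to 11.7 CPM or more in every liver.

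**Figure D5:**
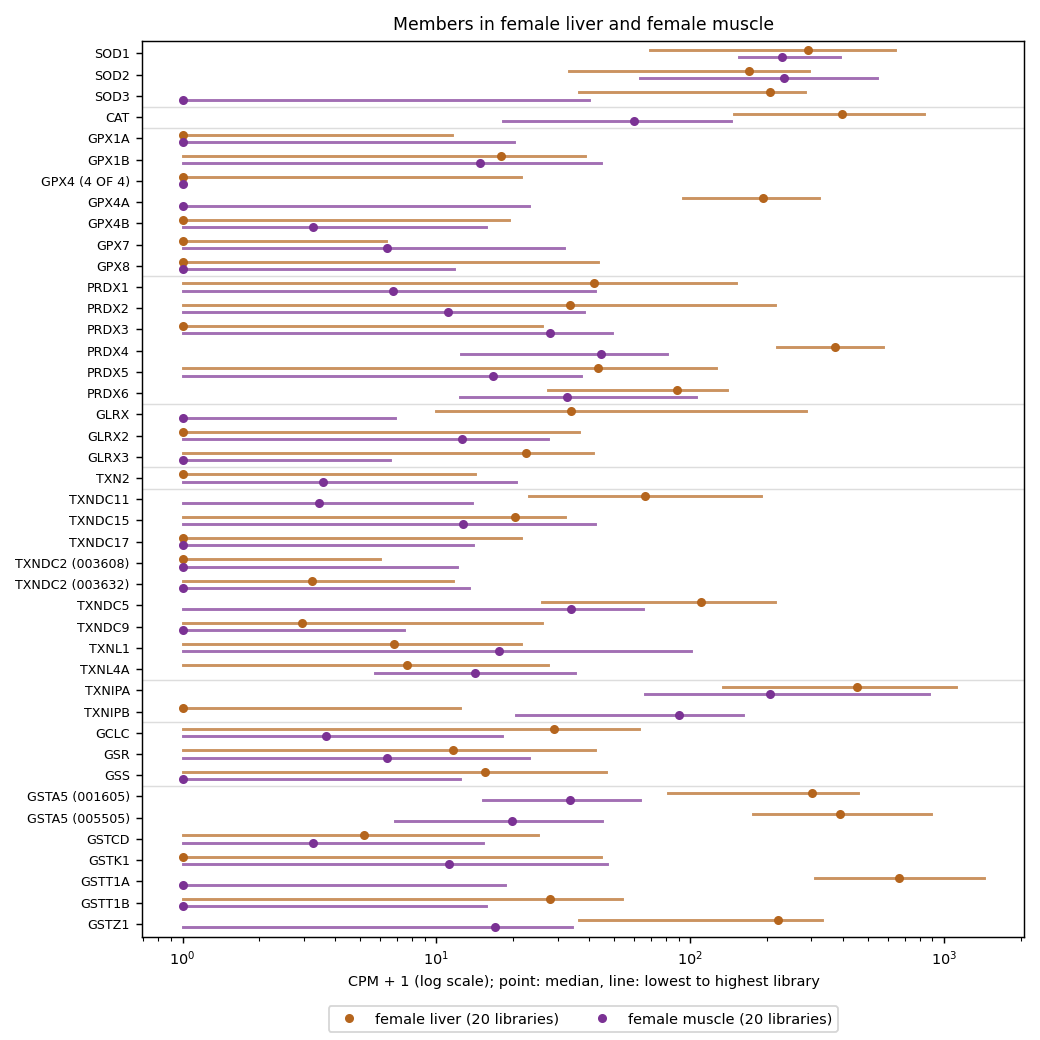
Level of the 42 genes with at least 10 counts in female liver (brown, 20 libraries) and female muscle (purple, 20 libraries), as CPM + 1 on a log axis; points are medians and lines run from the lowest to the highest library. GSTT1A shows the widest gap, with a median of 664 CPM in liver and 0 CPM in muscle, and TXNIPB the reverse, 0 and 89.5 CPM.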

How the data were processed

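RNA of liver and skeletal muscle was counted by BRB-seq in pooled libraries, 5 per group, each from a separate individual. Per the submitters' notes and the study's methods, UMI-tools, Trim Galore 0.6.7, HISAT2 2.2.1 and featureCounts 2.0.1 were used with the GRZ genome assembly. The methods state that reads were first subsampled for female livers and all muscles, whereas the column names mark this for 10 of 20 female livers and 36 of 40 muscles, and which is right is not known. The deposited values are counts of UMIs per gene, not normalized by the authors. Strand use in counting is not given in the sources used here. The 20 male liver columns were not used: they fill all 20406 lines of the table, whereas the other 60 fill the 18529 annotated ones, so which gene each count belongs to is uncertain.

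Each comparison was fitted over all genes with at least 10 counts in its libraries (edgeR 4.0.16, limma 3.58.1, R 4.3.3; TMM, glmQLFit and glmQLFTest, Benjamini-Hochberg adjusted p under 0.05), and the genes were read from that fit. The scripts were tested on simulated data, with equal numbers of well-counted genes raised and lowered. That test does not cover a shift of many genes in the same direction, or changes in sparsely counted genes. CPM per library use TMM-scaled totals within a tissue, while fold changes come from the libraries compared. The SE of an edgeR fold change was derived from its test, as the absolute log2 fold change over the square root of the F statistic. Alternatives were RLE factors, plain totals, filterByExpr, every gene with at least 1 count, DESeq2 1.42.0's Wald test, thinning to the smallest library, leaving out genes over 1% of a library, the replicate number as a block, all groups of a tissue in 1 fit, and leaving out each library. Leaving out each of the 40 female libraries in the liver and muscle comparison was added after seeing the data. Tables and plots used Python 3.11.15, numpy 2.4.6, pandas 2.3.3 and matplotlib 3.10.9.

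The genes and lists were chosen with earlier results of these data known. The genes named are those called, the main members of each family whatever their result, and those averaging over 500 CPM in a group; from the lists, genes called in liver or muscle are named in part, and 1 of them is not reported here. Replicate numbers recur across groups, but in none of the 16 comparisons (0 of 16) did every pair of libraries with the same number correlate over 0.1 in deviations from the group means (range -0.1066 to 0.1606), so they were not treated as pairs. That limit cannot exclude that some libraries were paired. Counts of 3 or less (11.7 to 107 CPM in livers on plain library totals, not TMM-scaled ones) were taken as the floor, for counting error only.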

Additional observations from a re-analysis of the deposited data

Results flagged for a closer look

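In 7 of 95 combinations of gene and group checked, 1 of the 5 libraries stood apart from the other 4 by Dixon's criterion, which chance passes in about 1 of 20. In liver this was PRDX1 in old control female replicate 3, at 122 CPM with the others at 33.2 to 51.3 CPM. In muscle of old fish, SOD1 in germ cell–removed female replicate 4 was at 319 CPM (others 175 to 211), SOD2 in germ cell–removed male replicate 1 at 237 CPM (others 315 to 338), and GSTA5 Nfu_g_1_005505 in control female replicate 1 at 32.5 CPM (others 14.2 to 18.6). In muscle of young germ cell–removed fish, CAT in female replicate 2 was at 20.4 CPM (others 41.0 to 47.9), CAT in male replicate 3 at 84.1 CPM (others 28.1 to 42.7), and GSTA5 Nfu_g_1_001605 in female replicate 4 at 16.4 CPM (others 55.8 to 63.2).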

How the results depend on the processing

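No called gene changed its sign in any alternative run for it. The number of genes called after germ cell removal in old female liver, 8, was 2 with thinned libraries (GSTT1A higher, PRDX2 lower). In young female liver the 8 calls, all higher, became 5 with filterByExpr (GSTT1A, GSTA5 Nfu_g_1_005505 and GSTZ1 higher, PRDX4 and TXNDC5 lower) and 2 with thinned libraries (GSTT1A higher, PRDX4 lower). With age, control female liver had 0 calls, but 1 with RLE factors, 1 without genes over 1% of a library and 2 in the fit of all groups. The single call with age in germ cell–removed female muscle became 2 with RLE factors, 4 with plain totals, 2 with filterByExpr and 2 without genes over 1%. Control female muscle went from 0 calls to 2 with plain totals and 1 with every gene of at least 1 count, and males to 6 (control) and 4 (germ cell–removed) with plain totals. Removal in old female muscle and sex in old control muscle each had 1 call with every gene of at least 1 count, and sex in young germ cell–removed muscle 1 with thinned libraries. The cause of these differences was not tested.

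With the replicate block, 1 gene was called for germ cell removal in old female muscle and 1 for sex in old control muscle (TXNIPA in each), and 1 with age in control female muscle, in place of 0. In old female liver the replicate block gave 7 calls in place of 8, and in young female liver 8. Whether the numbers pair the libraries is not known, so these values are not read as a weaker or stronger effect. Over all genes, the calls in these muscle comparisons went from 12 to 42, from 15 to 53 and from 232 to 363. In old female liver they went from 510 to 381, and in young female liver from 525 to 527.

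Leaving out each library in turn gave 6 to 8 calls for removal in old and 5 to 8 in young female liver, 5 being without young control replicate 3 (GPX1B among them) and 6 without old control replicate 2 or 5. With age it gave 0 to 4 in germ cell–removed and 0 to 2 in control female liver, 0 to 3 in germ cell–removed and 0 to 1 in control female muscle, and 0 to 1 in males of either treatment. Sex in old control muscle gave 0 to 1, and the other tests 0 to 0. In females 9 to 10 genes were higher in all livers and 1 to 1 in all muscles, and with control libraries alone 2 were higher in all muscles.

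Depth limits these results, since control livers had as few as 28062 counts and genes under about 100 CPM rest on a few molecules there.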
